A study of Mus musculus with 4 samples.

Results

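The desmosomal cadherins and corneodesmosin were followed as 9 genes, taken by name out of 24346 gene symbols in the skin data: the desmogleins *Dsg1a*, *Dsg1b*, *Dsg2*, *Dsg3* and *Dsg4*, the desmocollins *Dsc1*, *Dsc2* and *Dsc3*, and *Cdsn*. The comparison was between dorsal skin of male C57BL/6 mice fed a NASH diet rich in fat, cholesterol and sucrose with bile salt (Cont-IMQ group) and of mice fed this diet with 7-ketocholesterol, an oxidised form of cholesterol (7KC-IMQ group). The mice went on the diet at 8 weeks of age, ate it for 3 weeks, received imiquimod (IMQ) cream, which induces psoriasis-like dermatitis, for 1 day, and were sampled on Day 1. Each group had 2 RNA sequencing libraries, and both groups carried the NASH diet and IMQ, so that vehicle-treated skin and a plain diet were not part of the comparison. Nothing in the sources says whether the 2 libraries of a group are separate mice or pools, and the p-values measure only the spread between these libraries.

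Desmosomes are junctions that rivet neighbouring keratinocytes together. Desmogleins and desmocollins are the cadherins that bind across the gap between cells, and inside the cell they are held by plakoglobin, plakophilins and desmoplakin, which link them to keratin filaments. In the epidermis, *Dsg3* and *Dsc3* are known as the cadherins of the lower layers, *Dsg1* and *Dsc1* as those of the upper layers, and *Dsg4* is known for its place in the hair follicle. Corneodesmosin, the product of *Cdsn*, is added to desmosomes as cells cornify, and its cleavage by kallikrein proteases accompanies shedding of the skin surface. Mice carry the *Dsg1* gene in several copies, of which *Dsg1a*, *Dsg1b* and *Dsg1c* were in the files.

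The desmogleins and desmocollins did not differ in one direction. *Dsg3*, and at a far lower level *Dsc2*, were about 1.5-fold higher in mean in the 7KC-IMQ group, while *Dsg1a* was lower by 28.9%, and the groups did not overlap for any of the 3 genes. *Cdsn* had nearly the same mean in both groups. After adjustment over all 15896 genes tested by limma, 0 of the 9 members passed the threshold of 0.05, against 0.00629% of all genes, and the lowest adjusted p among the members was 0.352, that of *Dsg3*. The 1 gene that passed was the microRNA gene *Mir24-2*, named here after its values were seen. At an unadjusted p under 0.05, limma called 3 of the 9 members (*Dsg3*, *Dsg1a* and *Dsc2*), where the share over all genes tested was 13%. Of the 9 members, 2 were higher in the 7KC-IMQ group without overlap (23.9% of all genes tested) and 3 were lower without overlap (22.9%). The median log2 difference over the members was -0.08, beside -0.01 over all genes tested. Members were thus separated about as often as genes in general, to within 1 gene.

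Pairs of values are given in the order replicate 1 and replicate 2. Levels are given as FPKM, reads scaled to the length of the exons and to the depth of the library, which is a level per length and allows genes to be set in order. *Cdsn* was highest, its range running from 335 to 430 over the 4 libraries. Below it came *Dsc3*, *Dsg1a* and *Dsc1*. The range of *Dsg1a* over the 4 libraries overlapped those of both others, so that its place between them was not beyond the spread, while all 4 libraries of *Dsc3* were above all 4 of *Dsc1*. *Dsg3* followed, with all 4 libraries above all 4 of *Dsg1b*. Next came *Dsg2* and *Dsc2*, between 3.40 and 5.80, whose ranges overlapped. *Dsg4* was lowest of the members, with all 4 libraries under those of *Dsc2*. *Dsg1c*, no member but the third *Dsg1* gene, was at 0.140 and 0.118 in the Cont-IMQ group and at 0.0874 and 0.213 in the 7KC-IMQ group, which corresponds to an estimated 6 to 12 reads.

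**Figure D1:**
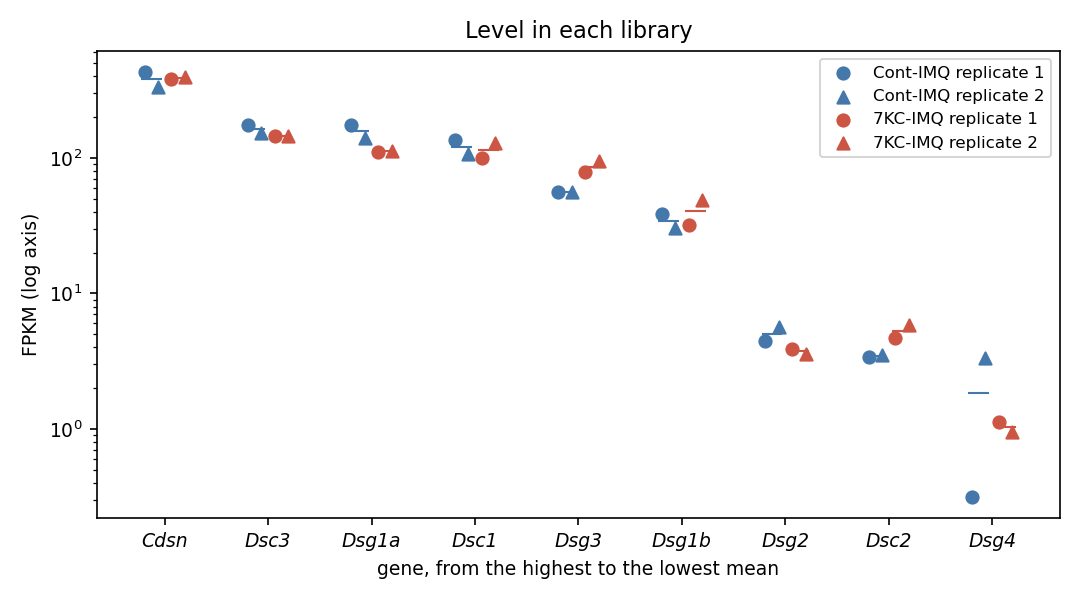
FPKM of the 9 members in each of the 4 libraries, on a log axis, ordered by mean level. Points are single libraries (blue, Cont-IMQ; red, 7KC-IMQ) and short lines are group means. *Dsg3* and *Dsc2* have both red points above both blue ones, *Dsg1a*, *Dsc3* and *Dsg2* have both below, and *Dsg4* has its Cont-IMQ libraries at 0.317 and 3.34.

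Among the desmogleins, *Dsg3* encodes the main adhesive desmoglein of the lower epidermis and the target of autoantibodies in pemphigus vulgaris. Its level was 56.1 FPKM in Cont-IMQ replicate 1 and 56.4 in replicate 2, against 78.1 in 7KC-IMQ replicate 1 and 94.4 in replicate 2. Both 7KC-IMQ libraries were above both Cont-IMQ libraries, which hardly differed from each other. The mean was 56.3 ± 0.252 FPKM in the Cont-IMQ group, against 86.2 ± 11.5 with 7KC (SD, n = 2 each), a ratio of 1.53. On the log2(FPKM + 1) scale, on which differences of weakly expressed genes come out too small, the difference was 0.60 (SE 0.11, 95% confidence interval 0.31 to 0.89, adjusted p = 0.352 by limma). Of all genes tested, 1.60% had a larger log2 difference. With each library left out in turn, it lay between 0.47 and 0.74.

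*Dsg1a*, a desmoglein of the upper, differentiating layers, was at 174 FPKM in Cont-IMQ replicate 1 and at 140 in replicate 2, against 111 and 112 with 7KC. Here the lower 2 libraries were the 7KC-IMQ ones, and the Cont-IMQ libraries were the more spread. The means were 157 ± 23.6 and 112 ± 0.629 FPKM (SD, n = 2 each), and the log2 difference was -0.48 (SE 0.12, 95% confidence interval -0.80 to -0.16, adjusted p = 0.356 by limma). Without each library in turn it lay between -0.63 and -0.33.

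Its copy *Dsg1b* did not follow it. *Dsg1b* was at 38.4 and 30.1 FPKM without 7KC (Cont-IMQ replicates 1 and 2), against 32.1 and 49.2 with 7KC (7KC-IMQ replicates 1 and 2), so that the groups overlapped (log2 difference 0.22, SE 0.24, 95% confidence interval -0.41 to 0.84, adjusted p = 0.730 by limma). Without 7KC-IMQ replicate 2 the difference was -0.08. The split between the copies is uncertain, because 39.7% of the 75-base windows of *Dsg1b* transcripts and 29.2% of those of *Dsg1a* also occur in another gene, for the most part in each other. Neither *Dsg2*, *Dsg3*, *Dsg4*, the desmocollins nor *Cdsn* had such windows (0%). Summed over *Dsg1a*, *Dsg1b* and *Dsg1c*, *Dsg1* was at 212 and 171 FPKM in the Cont-IMQ group, against 143 and 162 with 7KC, without overlap, with a ratio of means of 0.796.

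*Dsg2*, the desmoglein found in all tissues with desmosomes, including heart and simple epithelia, was at 4.44 and 5.61 FPKM in the Cont-IMQ group, against 3.88 and 3.59 with 7KC. Both 7KC-IMQ libraries were lower, with an estimated 300 to 472 reads behind the 4 values. Exons of the antisense gene *Gm16090* share 330 bases with those of *Dsg2*, and since the strand setting of the authors' counting is not given in the sources used here, reads from the pair cannot be told apart there. The log2 difference was -0.34 (SE 0.14, 95% confidence interval -0.71 to 0.02, adjusted p = 0.400 by limma). It was -0.20 without Cont-IMQ replicate 2 and -0.48 without Cont-IMQ replicate 1.

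Because *Dsg3* was higher and *Dsg1a* lower, the make-up of the desmogleins differed more than their sum. The summed desmoglein level was 255 ± 26.2 FPKM in the Cont-IMQ group, against 244 ± 24.0 with 7KC (SD, n = 2 each), and the groups overlapped. *Dsg3* took 20.5% and 23.9% of it in the Cont-IMQ libraries, against 34.5% and 36.2% in those with 7KC. *Dsg1* took 77.7% and 72.3% in the Cont-IMQ group, and 63.3% and 62.0% in the 7KC-IMQ group. The shares of both genes were separated without overlap. *Dsg2* took at most 2.38% of the sum and *Dsg4* at most 1.41%, so these shares and the ratio below describe the same contrast. How many gene pairs in general are separated in this way was not computed. The ratio of *Dsg1* to *Dsg3*, which does not depend on how a library is scaled, was 3.79 and 3.02 in the Cont-IMQ group and 1.84 and 1.71 in the 7KC-IMQ group, a log2 difference of -0.93. The smallest p that an exact two-sided permutation of 4 libraries allows is 0.333, and this was the p obtained (0.615 after adjustment over the 24 ratios computed).

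**Figure D2:**
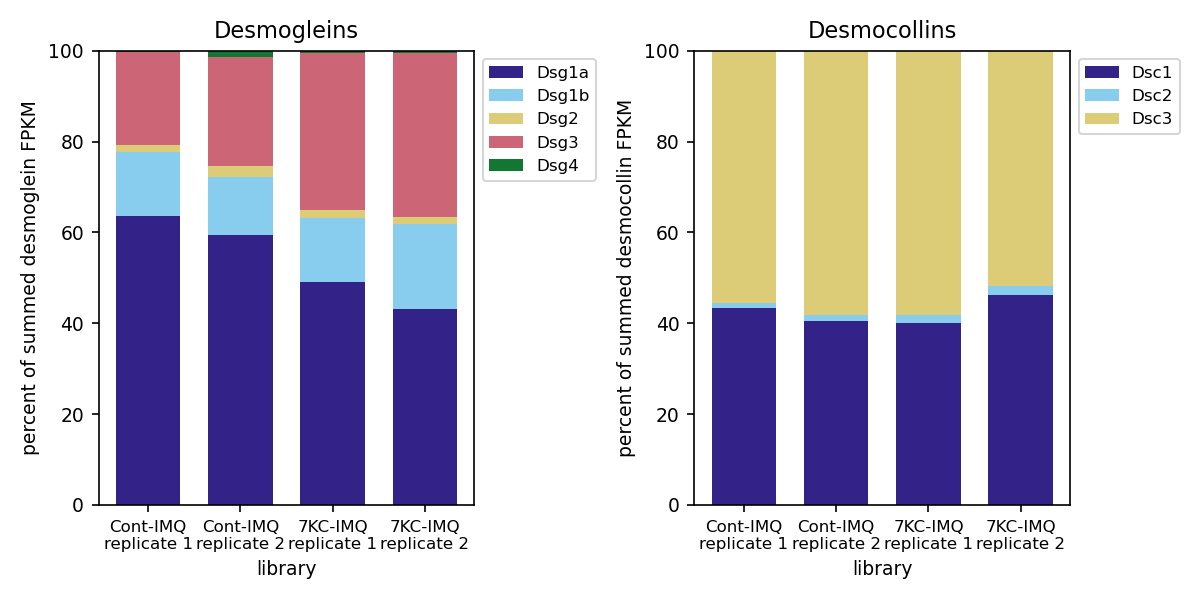
Share of the summed desmoglein FPKM (left) and desmocollin FPKM (right) taken by each gene, in percent, for each library. The *Dsg3* share is 20.5% and 23.9% in the Cont-IMQ libraries and 34.5% and 36.2% in the 7KC-IMQ libraries, while the *Dsc1* and *Dsc3* shares overlap between the groups; *Dsg1c* is too small to be drawn.

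Each member was also set against *Krt14*, a keratin of basal keratinocytes, and *Krt10*, a keratin of the layers above them. *Krt14* was at 4409 and 4132 FPKM in the Cont-IMQ group, against 4807 and 5700 with 7KC, itself higher without overlap. This was not shared by all basal keratinocyte genes. Of the others listed, *Itgb4* was also higher without overlap (ratio of means 1.07), while *Krt5* and *Itga6* overlapped between the groups (0.983 and 1.02). *Krt15* and *Col17a1*, named after their values were seen, were lower without overlap (0.567 and 0.792). Relative to *Krt14*, *Dsg3* was still higher in the 7KC-IMQ group, by 1.24-fold, and *Dsc2* by 1.23-fold, both without overlap. Lower without overlap relative to *Krt14* were *Dsg1a* (0.583 of its Cont-IMQ ratio), *Dsg2* (0.609), *Dsc3* (0.724), *Dsc1* (0.770) and *Cdsn* (0.834), while the groups overlapped for *Dsg1b* and *Dsg4*. Because *Krt14* was itself higher with 7KC, a gene of equal level in both groups comes out lower relative to it. *Dsc1* and *Cdsn* overlapped between the groups in their own FPKM. The share of all genes separated relative to *Krt14* or to *Krt10* was not computed. *Krt10* was at 8444 FPKM in Cont-IMQ replicate 1 and at 4597 to 5553 in the other 3 libraries. Relative to it, *Dsg3* and *Dsc2* were higher without overlap (1.76-fold and 1.74-fold), while the 2 groups overlapped for the other 7 members. These 2 log2 ratio differences, 0.81 and 0.80, were 0.37 and 0.34 without Cont-IMQ replicate 1 and 1.25 and 1.26 without Cont-IMQ replicate 2. None of these ratios could pass an exact permutation test at this size.

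The desmocollins are the partners of the desmogleins. *Dsc2*, the desmocollin that is also used by simple epithelia and heart, was at 3.40 and 3.51 FPKM in the Cont-IMQ group, against 4.71 and 5.80 with 7KC. Both 7KC-IMQ libraries were higher, with an estimated 229 and 235 reads behind the Cont-IMQ values and 340 and 386 behind the 7KC-IMQ values. The ratio of means was 1.52, and the log2 difference was 0.49 (SE 0.13, 95% confidence interval 0.15 to 0.82, adjusted p = 0.356 by limma). Its profile over the 4 libraries was the nearest of all members to that of *Dsg3*, and that of *Dsg3* the nearest to it, with a root mean square difference of 0.0591 between the centred log2 values. They were the only members higher without overlap, and how many genes outside the members lay as near was not counted.

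*Dsc3*, the desmocollin of the lower layers, did not share the direction of *Dsg3*. It was at 174 and 153 FPKM in the Cont-IMQ group, against 145 in each 7KC-IMQ library, slightly lower without overlap (log2 difference -0.17, SE 0.09, 95% confidence interval -0.41 to 0.07, adjusted p = 0.505 by limma). Without Cont-IMQ replicate 1 the difference was -0.075, and without Cont-IMQ replicate 2 it was -0.26. *Dsc1*, the desmocollin of the upper layers, was at 136 and 107 FPKM in the Cont-IMQ group, against 99.7 and 130 with 7KC, which overlapped (log2 difference -0.08, SE 0.18, 95% confidence interval -0.56 to 0.39, adjusted p = 0.881 by limma). The desmocollin sum was 288 ± 35.7 FPKM in the Cont-IMQ group, against 265 ± 22.1 with 7KC (SD, n = 2 each), with overlap. *Dsc2* took only 1.08% and 1.33% of it in the Cont-IMQ group, and 1.89% and 2.07% in the 7KC-IMQ group. The ratio of *Dsc2* to *Dsc3* was 1.70-fold higher in the 7KC-IMQ group without overlap, whereas that of *Dsc1* to *Dsc3* overlapped.

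**Figure D3:**
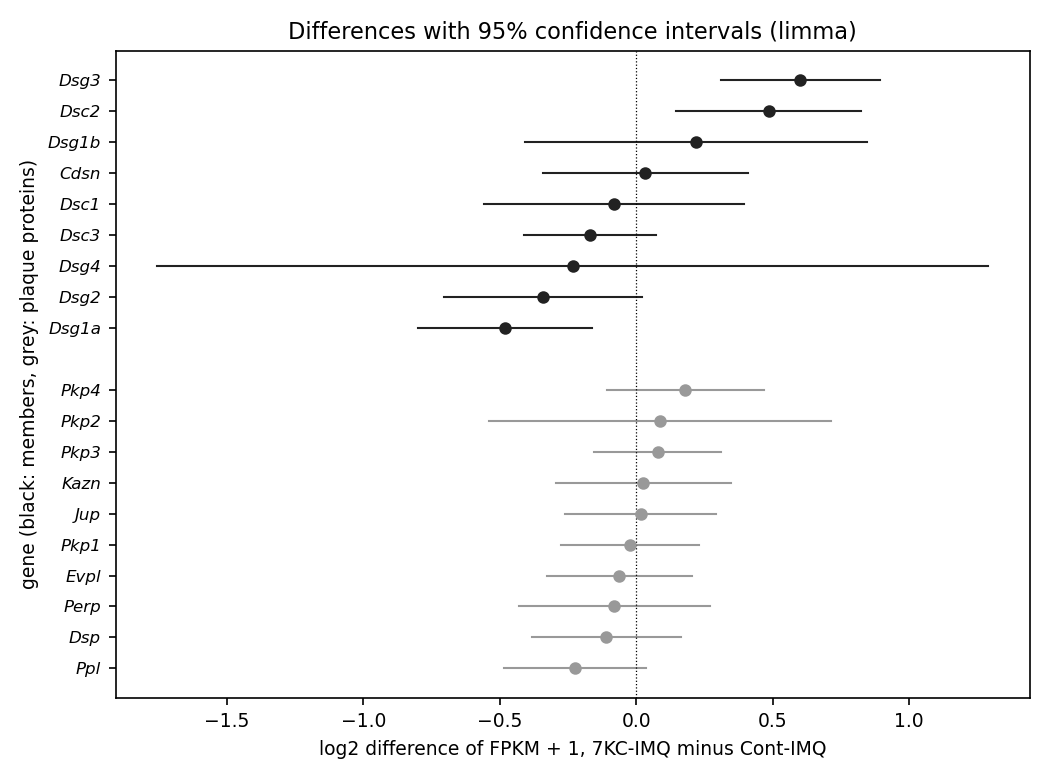
Log2 difference of FPKM + 1 between the groups (7KC-IMQ minus Cont-IMQ) with its 95% confidence interval from limma, for the 9 members (black) and the 10 plaque genes (grey). The intervals of *Dsg3*, *Dsc2* and *Dsg1a* lie to 1 side of 0, those of the other members and of all the plaque genes include 0, and that of *Dsg4* is the widest.

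The genes for the plaque proteins that hold these cadherins were read next. Of 10 genes, 1 was higher (*Pkp4*) and 1 lower (*Ppl*) without overlap, beside 23.9% and 22.9% of all genes tested. By limma, 0 passed the adjusted threshold and 0 had an unadjusted p under 0.05, where the share over all genes tested was 13%. The median log2 difference was -0.00, and whether the list differs from other genes was not tested. *Jup*, which encodes plakoglobin, was at 254 ± 22.1 FPKM in the Cont-IMQ group, against 257 ± 19.5 with 7KC. *Dsp*, for desmoplakin, was at 335 ± 34.8 and 310 ± 9.45, and *Pkp1*, for the plakophilin of upper layers, at 348 ± 28.7 and 342 ± 13.2 (SD, n = 2 each). Their log2 differences were 0.02, -0.11 and -0.02. *Perp*, a tetraspan protein of desmosomes, was highest of the list, at 1461 ± 180 and 1378 ± 67.1 FPKM. *Pkp2*, the plakophilin best known from the heart, was lowest, at 1.09 ± 0.557 and 1.20 ± 0.379 FPKM (SD, n = 2 each). The plakophilin genes *Pkp2*, *Pkp3* and *Pkp4* had log2 differences of 0.09, 0.08 and 0.18, and *Evpl*, *Ppl* and *Kazn*, which encode envoplakin, periplakin and kazrin, had -0.06, -0.23 and 0.02. Among 9 genes of adherens junctions, 2 were higher and 1 lower without overlap, and among 7 of tight junctions, 1 was higher and 1 lower. The same shares over all genes tested apply to these counts. Their most abundant genes were *Ctnnb1* and *Ctnna1* (log2 differences 0.01 and 0.02) and *Cldn4* and *Cldn1* (-0.09 and -0.18).

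*Dsg4* varied most between the 2 libraries of the Cont-IMQ group. It was at 0.317 FPKM in Cont-IMQ replicate 1 and at 3.34 in replicate 2, with 1.13 and 0.944 in the 7KC-IMQ libraries. The 2 Cont-IMQ libraries were thus the lowest and the highest of all, and differed 10.5-fold. Behind these values stood an estimated 16 and 166 reads in the Cont-IMQ group, with 95% Poisson intervals of 9.15 to 26.0 and 142 to 193 for counting error alone, and 60 and 46 in the 7KC-IMQ group. The log2 difference between the groups was -0.23 (SE 0.58, 95% confidence interval -1.76 to 1.29, adjusted p = 0.894 by limma). Without Cont-IMQ replicate 2 it was 0.63, and without Cont-IMQ replicate 1 it was -1.09.

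All 19 hair follicle genes measured, 14 keratins of the hair shaft and inner root sheath among them, were highest in Cont-IMQ replicate 2 and lowest in Cont-IMQ replicate 1, as *Dsg4* was. Their summed FPKM was 149 and 1716 in the Cont-IMQ group and 517 and 457 in the 7KC-IMQ group. From Cont-IMQ replicate 1 to replicate 2 the sum differed 11.5-fold, and the median over the 18 genes above 0 in replicate 1 was 13.5-fold (range 2.58 to 128). The largest of these ratios, those of *Krt33b* and *Krt34*, start from values near 0 (0.0473 and 0.0465 FPKM in Cont-IMQ replicate 1). The share of all genes with this order of libraries was not computed. *Krt86* was listed at 0 in Cont-IMQ replicate 1. The 5 melanocyte genes measured (*Tyr*, *Tyrp1*, *Dct*, *Pmel* and *Mlana*) followed the same order, each highest in Cont-IMQ replicate 2 and lowest in Cont-IMQ replicate 1, and summed to 45.3 and 149 FPKM, against 85.1 and 73.5 with 7KC. The part of these cells in the *Dsg4* values was not tested. In whole skin, fewer cells of a type and less RNA per cell cannot be told apart, and this holds for every gene described here.

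**Figure D4:**
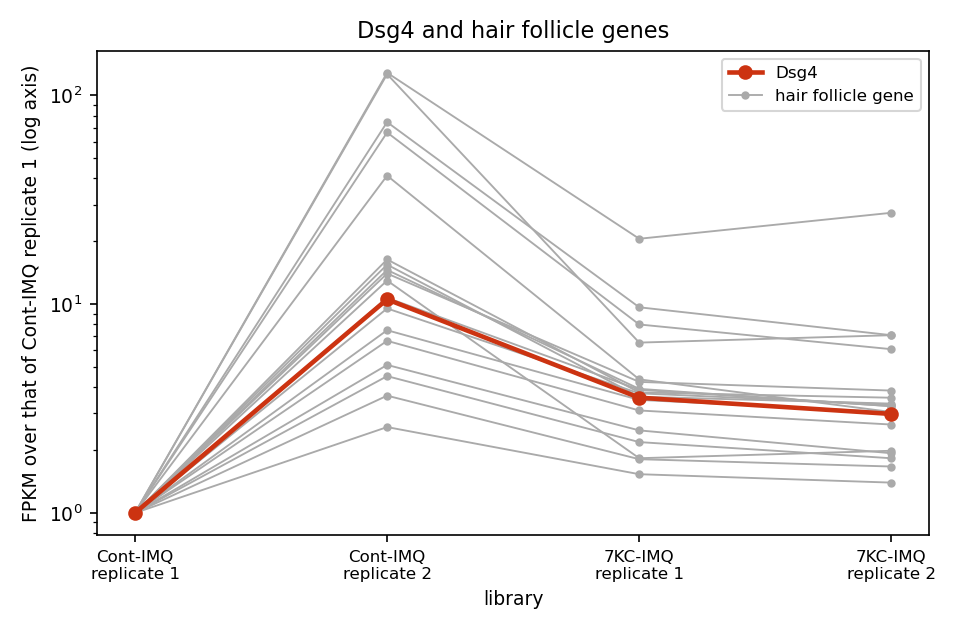
FPKM of *Dsg4* (red) and of 18 hair follicle genes (grey) in each library, divided by the FPKM of the same gene in Cont-IMQ replicate 1, on a log axis; lines join the values of 1 gene. All genes peak in Cont-IMQ replicate 2, and *Dsg4*, at 10.5 there, runs among the hair follicle genes.

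Apart from *Cdsn*, all members and *Dsg1c* lie in 1 cluster on mouse chromosome 18, at chr18:19960930-20604521 in GRCm38 (mm10), a span of 644 kb. The 3 desmocollins are on the minus strand, in the order *Dsc3*, *Dsc2* and *Dsc1*, and the 6 desmogleins on the plus strand, in the order *Dsg1c*, *Dsg1a*, *Dsg1b*, *Dsg4*, *Dsg3* and *Dsg2*. Along the cluster, genes with positive and negative log2 differences lay side by side, and a part of position in these differences was not tested. Several of the signs are not settled. Those of *Dsg4*, *Dsc1* and *Dsg1b* changed when a library was left out, and *Dsg1c* rests on an estimated 6 to 12 reads. *Dsg3* (20510274 to 20547459), the member with the largest positive log2 difference, lies between *Dsg4* (20436175 to 20471821) and *Dsg2* (20558074 to 20604521), which had negative ones. *Dsc2* (20030633 to 20059554) likewise lies between *Dsc3* and *Dsc1*, both with negative log2 differences.

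**Figure D5:**
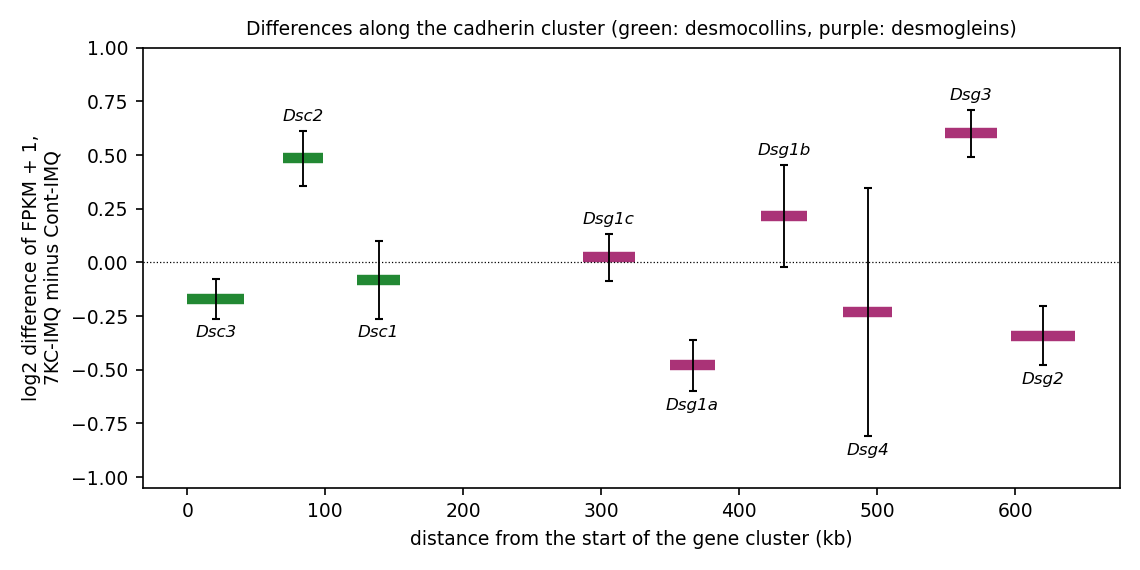
Log2 difference of FPKM + 1 (7KC-IMQ minus Cont-IMQ) of each gene against its place in the cluster, in kb from the start of the cluster. Bars span the gene (green, desmocollins; purple, desmogleins) and whiskers show the SE. Positive and negative differences alternate, with *Dsg3* at 0.60 next to *Dsg2* at -0.34, but the whiskers of *Dsc1*, *Dsg1c*, *Dsg1b* and *Dsg4* cross 0.

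Of 14 transcription factors of keratinocyte differentiation, 2 were higher and 4 lower without overlap, beside 23.9% and 22.9% of all genes tested (median log2 difference -0.01). Among them, the most abundant were *Klf4*, a factor of barrier formation, at 344 ± 33.3 FPKM in the Cont-IMQ group, against 306 ± 81.9 with 7KC, and *Cebpb*, at 114 ± 3.39 and 169 ± 49.1 (SD, n = 2 each). Among 6 genes for sheddases and turnover of desmogleins, 2 were higher and 0 lower without overlap, and *Adam15* and *Adam9*, metalloproteases, had log2 differences of -0.02 and 0.12. No gene of these lists passed the adjusted threshold of limma, and whether either list differs from other genes was not tested.

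Corneodesmosin was the most abundant member and the one whose group means lay closest together. *Cdsn* was at 430 FPKM in Cont-IMQ replicate 1 and at 335 in replicate 2, with 380 and 397 in the 7KC-IMQ libraries. Both 7KC-IMQ values fell between the Cont-IMQ values. The means were 383 ± 67.4 and 388 ± 12.5 FPKM (SD, n = 2 each), and the log2 difference was 0.03 (SE 0.14, 95% confidence interval -0.34 to 0.41, adjusted p = 0.943 by limma), which leaves room for a difference in either direction. Set against summed *Dsg1*, *Cdsn* was higher in the 7KC-IMQ group, with ratios of 2.03 and 1.96 in the Cont-IMQ group and 2.65 and 2.46 in the 7KC-IMQ group. With *Dsg1b* alone in place of the sum, the log2 ratio difference was negative (-0.19), but the groups overlapped. The genes whose profiles over the 4 libraries were most like that of *Cdsn* were *Mocs2*, *Ppp1r14c*, *Prom2*, *Oard1* and *Rdh9*, with root mean square differences of 0.0100 to 0.0137, but 986 of the 7093 genes compared lay within 0.1. Nearest to summed *Dsg1* were *Coq10a*, *Sytl1*, *Ppp1r1a*, *Slc22a23* and *3425401B19Rik*, with 160 genes within 0.1.

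*Cdsn* lies on mouse chromosome 17 at chr17:35552128-35557180 (GRCm38, plus strand), in the region that corresponds to the human psoriasis susceptibility locus PSORS1. Its upstream neighbour on the same strand, *Psors1c2* (chr17:35533201-35534647), ends 17.5 kb before it and was chosen after its values were seen. *Psors1c2* was at 67.4 and 73.5 FPKM in the Cont-IMQ group, against 151 and 192 with 7KC. Both 7KC-IMQ libraries were thus far above both Cont-IMQ libraries, with a ratio of means of 2.43 and a log2 difference of 1.26 (SE 0.14, adjusted p = 0.331 by limma), while the *Cdsn* groups overlapped. The 250 bases before the start of each gene are shown because these 2 neighbours differed in this way. They are RefSeq promoter sequences of GRCm38.p6, plus strand, at chr17:35551878-35552127 for *Cdsn* and chr17:35532951-35533200 for *Psors1c2*. The RefSeq promoters held 2 entries for *Cdsn*, of which only that at the gene start given above is shown. Capitals mark matches to the motifs searched.
Cdsn: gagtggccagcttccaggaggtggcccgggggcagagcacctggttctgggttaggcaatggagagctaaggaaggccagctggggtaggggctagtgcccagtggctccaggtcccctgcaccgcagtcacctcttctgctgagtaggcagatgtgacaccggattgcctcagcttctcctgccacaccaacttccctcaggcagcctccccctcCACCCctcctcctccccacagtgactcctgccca
Psors1c2: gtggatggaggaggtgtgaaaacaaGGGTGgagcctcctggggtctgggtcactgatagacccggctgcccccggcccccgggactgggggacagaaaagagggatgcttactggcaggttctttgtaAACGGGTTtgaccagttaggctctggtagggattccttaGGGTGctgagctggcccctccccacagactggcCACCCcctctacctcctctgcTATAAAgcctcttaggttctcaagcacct

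The motifs were searched on both strands, and the share of 32851 promoters of the same length that held each is given with it. The TATA box was searched as TATAAA, held by 12.4%. The AP-1 motif was searched as TGANTCA, held by 6.75%, and the STAT motif as TTCNNNGAA, held by 7.02%. The motif bound by KLF factors was searched as CACCC, held by 52.0%. That of GRHL factors was searched as AACNGGTT, held by 1.79%, and the E-box as CACGTG, held by 6.02%. The *Cdsn* sequence held 1 match, a CACCC from base -34 to -30 before the start. That of *Psors1c2* held 5 matches, TATAAA from -29 to -24, AACNGGTT from -122 to -115, and CACCC or its complement at 3 places. These matches describe letters and are not shown to be bound sites.

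A list of proteases and inhibitors linked to the desmosomes of cornifying cells was read beside *Cdsn*. Whether each of them acts on corneodesmosin was not examined. Of 14 genes, 11 were higher and 3 lower in mean in the 7KC-IMQ group, where 7739 and 8157 of all genes tested were. Without overlap, 7 were higher and 1 lower, beside 23.9% and 22.9% of all genes tested, and whether the list differs from other genes was not tested. Of the 14, 0 passed the adjusted threshold of limma, 2 had an unadjusted p under 0.05 (*Klk6* and *Klk10*), and the median log2 difference was 0.12. *Klk7*, the chymotrypsin-like kallikrein that cleaves corneodesmosin, was at 786 and 700 FPKM in the Cont-IMQ group, against 805 and 964 with 7KC, higher without overlap by a narrow gap (log2 difference 0.25, SE 0.13, adjusted p = 0.504 by limma). *Asprv1*, a protease of the stratum corneum, was the most abundant, at 1881 ± 414 and 1683 ± 129 FPKM (SD, n = 2 each). *Klk6* and *Klk10*, named after their values were seen, were at 310 ± 4.24 and 95.2 ± 2.34 FPKM in the Cont-IMQ group, against 594 ± 71.0 and 192 ± 34.8 with 7KC (SD, n = 2 each). *Klk5* and *Spink5*, its inhibitor, overlapped between the groups, with log2 differences of 0.05 and 0.09.

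Markers of the skin layers and of other cells were read beside these genes. The counts are of genes separated without overlap, where 23.9% of all genes tested were higher and 22.9% lower. No list was tested against other genes. Basal keratinocyte genes (2 higher and 2 lower without overlap among 6) summed to 7994 and 7144 FPKM in the Cont-IMQ group, against 7976 and 8782 with 7KC, with *Krt14* and *Krt5* highest. Spinous genes (0 of 5 separated, *Krtdap* and *Krt10* highest) summed to 28667 and 20529, and to 22090 and 24518. Granular and cornified genes (1 higher and 3 lower among 9, *Lor* and *Lce1a1* highest) summed to 4384 and 2963, and to 3270 and 3315. The spinous and granular sums were highest in Cont-IMQ replicate 1, as were the fibroblast and skeletal muscle sums given below. Among the members, this held for *Dsg1a*, *Cdsn*, *Dsc1* and *Dsc3*. *Dsg1b*, *Dsg3* and *Dsc2* were highest in 7KC-IMQ replicate 2, and *Dsg2* and *Dsg4* in Cont-IMQ replicate 2. The leukocyte sum was 1363 and 1142 FPKM in the Cont-IMQ group, against 3695 and 6875 with 7KC, nearly all of it *S100a8*, which keratinocytes can also express. Of the 6 leukocyte genes measured, 2 were higher and 3 lower without overlap, *Ptprc* was at 9.22 to 9.99 FPKM in all libraries, and *Cd79a* was listed at 0 in Cont-IMQ replicate 1. Sebaceous gland genes (6 higher and 2 lower among 8, *Fabp5* and *Scd1* highest) summed to 2813 and 2440, and to 3494 and 4684. Most of this sum was *Fabp5*, at 2127 and 1866 FPKM in the Cont-IMQ group, against 2703 and 3909 with 7KC. Endothelial genes (1 higher and 3 lower among 6) summed to 58.0 and 71.2, and to 54.8 and 51.3, and fibroblast genes (1 and 1 among 6) to 3406 and 2446, and to 3178 and 2788. Adipocyte genes (2 and 0 among 7) summed to 1609 and 2442, and to 2365 and 1827. Skeletal muscle genes (2 and 2 among 10) summed to 7912 and 7664, and to 6579 and 7809. Genes of simple epithelium and sweat gland (2 and 3 among 5) summed to 99.2 and 91.7, and to 102 and 99.6. Nearly all of this last sum was *Epcam*, at 97.7 and 89.0 FPKM in the Cont-IMQ group, against 101 and 98.1 with 7KC. The part of these cell populations in the differences of the cadherins was not tested.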

How the data were processed

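Skin RNA was prepared with a TruSeq stranded mRNA kit and read as 75-base single-end reads. The authors mapped the reads to mm10 and deposited FPKM values, 1 per gene symbol and library, already scaled to mapped reads and gene length. The submitters' processing notes list TopHat2 2.1.1, Bowtie2 2.2.8, SAMtools 0.1.18 and Cuffdiff 2.2.1, the methods of the study name Cufflinks, and the annotation and strand setting are not given in the sources used here. Read counts were not used. Depth was estimated from the steps of low FPKM values as 15010000 to 16290000 mapped reads per library. It was chosen to bring the most low genes near whole reads, which was 69.1% to 72.6% of them. The median over the depths tried was 13.4% to 15.1%, and 20% is the share by chance at a depth fixed in advance. Estimated reads and their intervals cover counting error only. The FPKM totals were 630272 to 702218 and 7185 to 7388 symbols were listed at 0.

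Groups were taken from the sample labels. From the FPKM values, log2(FPKM + 1) was compared between the groups by limma 3.58.1 in R 4.3.3 (lmFit and eBayes with a mean-variance trend, two-sided, Benjamini-Hochberg adjustment at 0.05) in 15896 genes (mean FPKM 0.1 or more), which included all 9 members. The test was checked on simulated data with differences larger than that of any member. This check does not show whether differences of the members' size could be called. The test of ratios was a two-sided exact permutation test (scipy 1.17.1). Positions, transcripts and shared 75-base windows came from GENCODE M21, and promoters from RefSeq.

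The members and the 20 gene lists were chosen with earlier results of these data known. The genes named were the members, *Dsg1c*, all plaque genes, the 2 genes of highest mean FPKM and any gene past the threshold in other lists, and the nearest genes by profile. Other named genes were chosen after their values were seen. Of 164 list genes, 2 (*Flg* and *Ly6g*) were not in the files used here and 3 were found under an older symbol. The alternatives were another pseudocount, another filter or none, other scalings, a fit with no variance trend, one with a replicate block, and leaving out each library.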

Additional observations from a re-analysis of the deposited data

How the results depend on the processing

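No member passed the adjusted threshold under any of the 12 alternatives, in which the adjusted p of limma ranged from 0.239 to 1 over the members. *Dsg3* and *Dsc2* kept a positive and *Dsg1a*, *Dsg2* and *Dsc3* a negative log2 difference in all of them, with *Dsg2* between -0.48 and -0.20 and *Dsc3* between -0.26 and -0.075 over the libraries left out. The number of genes called by limma, 1 as reported, was 2 with a pseudocount of 0.1, 71 without a filter, and 1 to 9 without each library in turn (9 without Cont-IMQ replicate 1, 5 without Cont-IMQ replicate 2). The replicate numbers are shared between the groups but are not said to mark a litter or day, and same-numbered libraries deviated together with a correlation of only 0.0651. With the number as a replicate block, 1 gene and 0 members were called.

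Without each library in turn, the median log2 difference of the members lay between -0.17 and 0.091 (0.091 without Cont-IMQ replicate 1 and 0.066 without 7KC-IMQ replicate 1), and the number of members separated without overlap, 5 as reported, between 6 and 8, since 2 libraries are more easily separated from 1. The log2 difference of *Cdsn* was -0.049 with the same sum in each library, -0.068 with quantile normalization, and -0.15 to 0.21 over the libraries left out. In the same way *Dsc1* ranged from -0.27 to 0.11, *Dsg1b* from -0.083 to 0.52 and *Dsg4* from -1.09 to 0.63. The log2 ratio of *Cdsn* to *Dsg1* differed by -0.19 with *Dsg1b* alone. Over the libraries left out, the log2 ratio difference of *Dsg4* to *Dsg3* lay between -2.30 and 1.09 and of *Dsc1* to *Dsc3* between -0.10 and 0.28. Relative to *Krt14* it lay between -0.26 and 0.11 for *Dsg1b* and between -2.04 and 1.46 for *Dsg4*. Relative to *Krt10* it lay between -0.57 and 0.0032 for *Dsg1a*, -0.83 and 0.39 for *Dsg2*, -1.93 and 2.34 for *Dsg4*, -0.15 and 0.39 for *Dsc1*, -0.31 and 0.37 for *Dsc3*, 0.37 and 1.25 for *Dsg3*, 0.34 and 1.26 for *Dsc2*, and -0.023 and 0.49 for *Cdsn*. The cause of these changes was not tested. Depth was not tested as a limit. The members rest on an estimated 16 to 166 reads for *Dsg4*, 229 to 472 for *Dsg2* and *Dsc2*, and more for the others.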
